A study of Mus musculus with 191 samples.

Results

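The 43 genes described here encode the machinery that copies chromosomal DNA in S phase, with the enzymes that supply its nucleotides and the regulators that switch it on. They were taken by name from a fixed list, as the rows of these genes in 5 tables of mouse tissue RNA-seq, out of 21205 genes that appear in any of the tables. The list holds the helicase subunits Mcm2 to Mcm7, the loading and firing factors (Mcm10, Cdc6, Cdt1, Cdc45, Gins1 to Gins4, Orc1 and Orc6), and Pcna with its loader subunits Rfc1 to Rfc5. It also holds the polymerase subunits (Pola1, Pola2, Prim1, Prim2, Pold1, Pold2, Pole and Pole2), the single-strand binding proteins Rpa1 to Rpa3, Lig1 and Fen1, the nucleotide enzymes Rrm1, Rrm2, Tyms and Tk1, and the regulators E2f1, E2f2, Ccne1 and Ccne2.

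Replication origins are licensed when the origin recognition complex, Cdc6 and Cdt1 load the MCM helicase onto DNA. Cdc45 and GINS then join MCM to form the active helicase, polymerase alpha with its primase lays down primers, and polymerases delta and epsilon extend them on the sliding clamp Pcna, which the Rfc complex loads. Most of these genes are transcribed when E2F factors are released late in G1, with cyclin E as partner of the kinase that drives S phase entry, so that in whole tissue their transcripts are widely read as a measure of dividing cells. In the intestine the dividing cells sit in the crypts, and in the skin in the basal epidermis and the hair follicles.

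The series asked how tissues change over the day with and without neutrophils, and holds 191 libraries. Bone marrow, gut, liver and lung came from wild-type C57BL/6 mice that had received either the anti-Ly6G antibody 1A8, which targets a surface protein of neutrophils, or a control IgG. Both were given at 3 µg per g of body weight on consecutive days before collection on the third day. Each tissue had 18 mice per antibody, 3 at each of Zeitgeber time (ZT, hours after lights on) 1, 5, 9, 13, 17 and 21. Ear skin was collected after saline perfusion at 16 times from 1 mouse per genotype and time. Of these mice, 16 are labelled as wild-type C57BL/6 given diphtheria toxin. Another 16 are Mrp8CRE; iDTR mice, in which Cre under the Mrp8 promoter, used to target neutrophils, makes cells sensitive to the toxin, and these received the same toxin dose of 10 µg per kg for consecutive days. The last 15 are Mrp8CRE; Bmal1-flox mice, untreated, in which Cre removes the clock gene Arntl from neutrophils. No skin of this genotype was collected at ZT 16, and the strain of the Cre lines is not given in the labels. Some mice were kept under an inverted light cycle and the labels do not say which. The untreated Bmal1-flox mice therefore differ from the controls in toxin as well as genotype, and the 2 cannot be told apart.

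Several libraries and labels stood apart before any comparison of the replication genes. In the lung table Dbp, an output of the clock, had its fitted peak at 3.44 h in IgG mice and 0.30 h in anti-Ly6G mice, against 10.1 h in gut and 8.59 h in liver of IgG mice, so lung results are given by the labelled times. The lung epithelial surfactant gene Sftpc averaged 18554 in the lung libraries of IgG mice and the hepatocyte gene Alb 64809 in the liver libraries, so these tissues match their names. The table labelled gut holds no row for the small-intestinal genes Apoa4, Lct and Sis, and Fabp1 averaged 0.193 there, while Vil1 and smooth muscle genes were present, so the segment is not settled by these markers. In that table, genes of the seminal vesicle, prostate and pancreas summed to 21960 in the library of anti-Ly6G mouse 1 (ZT 1) and 535 in that of anti-Ly6G mouse 6 (ZT 13), against a median of 301 over the IgG libraries. In skin, the transcript Gt(ROSA)26Sor, from the locus that commonly carries the iDTR allele, averaged 0.870 ± 0.401 (SD, n = 16) in libraries labelled control and 0.655 ± 0.319 (n = 16) in iDTR, but 26.2 ± 2.44 (n = 15) in Bmal1-flox. The first group is therefore called "labelled control" below. Neutrophil transcripts did not show the depletion directly: Cxcr2 averaged 145 and 149 in bone marrow of IgG and anti-Ly6G mice, 2.31 and 2.28 in gut, and 11.6 and 19.9 in labelled control and iDTR skin.

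Values are the deposited normalised read values, on a scale close to RPM (reads scaled to library size) and not divided by gene length, so levels are compared between conditions for 1 gene and not between genes. The recovered depth was between 7.68 and 30.9 M reads per library. The 5 tables were normalised separately, so a level set across tissues is a description. In bulk tissue, fewer dividing cells and less transcript per cell cannot be told apart. The design text gives separate mice per group and time, and does not say whether the tissues came from the same mice.

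All 43 genes had a row in bone marrow, gut, lung and skin, and 42 in liver, where Orc1 had none. Genes whose mean over a tissue's libraries was under 1 were left out of its tests, and all 43 were tested in bone marrow, gut and skin. In lung 42 were tested, since Orc1 lay between 0.303 and 0.828 in the IgG libraries and between 0.318 and 1.02 in the anti-Ly6G libraries. In liver 38 were tested, since Cdc6 (0.0342 to 0.792 in IgG), Cdc45 (0.422 to 1.58), Gins3 (0.298 to 1.51) and Pole2 (0.103 to 1.01) fell under the filter. The summed value of the 43 genes had a median of 6671 in bone marrow of IgG mice (lowest 6049, highest 7858), 1049 in gut (791 to 1379), 685 in lung (642 to 768) and 322 in liver (285 to 372). In labelled control skin it was 1148 (1018 to 1334). The bone marrow range lay above all the others and the liver range below them, while gut and skin overlapped.

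**Figure D1:**
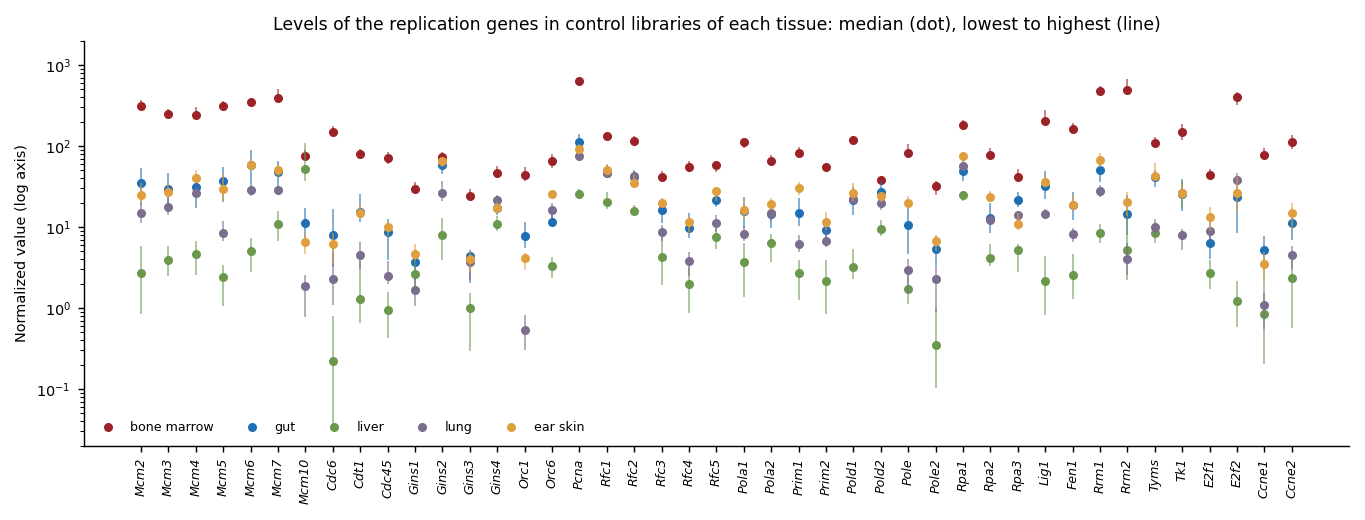
Value of each replication gene in the control group of each tissue (IgG mice, or labelled control skin), on a log axis. Points are medians over the libraries of the group and bars run from the lowest to the highest library. The bone marrow points lie highest, with a group sum of 6671, and the liver points lie lowest for most genes, with Mcm10, Rrm2 and Tk1 among the exceptions.

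Mcm10, which holds Cdc45 and MCM together as the helicase starts, departed from that order. It averaged 62.8 ± 21.3 in liver of IgG mice (SD, n = 18, lowest 36.7, highest 109), against 77.0 ± 5.35 in bone marrow, 11.6 in gut, 6.47 in labelled control skin and 1.83 in lung. The lowest liver library lay above the gut, skin and lung means, while the liver and bone marrow values overlapped. Its exons (chromosome 2, 4989714 to 5012791 on GRCm38, minus strand) share no base with another annotated gene.

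In the gut, most replication genes followed a daily rhythm whose fitted maximum fell late in the dark phase. The measured mean of the 43 genes (log2, centred on each gene's mean) was 0.304 at ZT 17, 0.228 at ZT 21 and 0.324 at ZT 1 in IgG mice. In anti-Ly6G mice it was 0.081, 0.396 and 0.276 at these times, so the measured maximum lay at ZT 21 in that group only. A cosine of period 24 h, tested by limma across all genes of the table with Benjamini-Hochberg adjustment, was called for 38 of 43 genes in IgG mice, where 33.6% of all genes were called, and for 41 of 43 in anti-Ly6G mice, where 24.6% were called. The 38 genes were called in both. The median peak-to-trough ratio over the 43 genes, on the scale of value + 1, was 1.69 in IgG mice and 1.78 in anti-Ly6G mice, and the mean peak time of the genes called was 20.6 h and 21.3 h. Of the 38 called in IgG mice, 36 peaked between ZT 19 and ZT 24, and the same held for 40 of the 41 in anti-Ly6G mice. Without anti-Ly6G mice 1 and 6, whose libraries carried transcripts of other organs, and IgG mouse 10, 38 and 39 genes were called. IgG mouse 10 was left out for its value of Pbsn, a prostate gene, which was the highest of the IgG mice (40.1 against a median of 0.0377), while its summed value over the other-organ list (332) did not stand apart from theirs.

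E2f2, a transcription factor of the E2F family, had the widest rhythm of the 43 (chromosome 4, 136172394 to 136196057 on GRCm38, plus strand). In IgG mice its values in the 3 mice were 34.5, 35.2 and 35.5 at ZT 1, then 13.9, 16.8 and 23.0 at ZT 5, 8.50, 9.29 and 9.33 at ZT 9, and 8.83, 9.33 and 10.0 at ZT 13. They were 24.3, 27.2 and 30.6 at ZT 17 and 34.1, 35.8 and 42.5 at ZT 21. The 6 libraries of ZT 9 and ZT 13 all lay below every library of the other 4 times. The fitted ratio was 4.60 with a peak at 22.2 ± 0.235 h (SE, adjusted p = 1.38e-13, limma). In anti-Ly6G mice the means ran from 7.60 ± 1.74 (SD, n = 3) at ZT 9 to 35.1 ± 1.05 at ZT 1, with a ratio of 4.88 and a peak at 22.1 h (adjusted p = 3.66e-14).

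Among the polymerase genes, Pole, the catalytic subunit of the leading-strand polymerase epsilon, was at 15.8 ± 1.79 (SD, n = 3) at ZT 1 and 6.01 ± 1.21 at ZT 9 in IgG mice, and the mice of these times did not overlap. Its ratio was 2.59 with a peak at 21.4 h in IgG mice and 2.40 at 21.7 h in anti-Ly6G mice. Prim1, the catalytic subunit of the primase, had a ratio of 1.73 at 21.1 h and 1.74 at 22.1 h. Pola1, the catalytic subunit of polymerase alpha, reached 1.97 at 21.7 h and 2.35 at 22.1 h, and its partner Pola2 1.66 at 20.3 h and 1.46 at 20.1 h. The fitted peaks of these 4 genes thus fell between 20.1 h and 22.1 h in both antibody groups. Of the others, Pold1, the catalytic subunit of polymerase delta, had 1.68 at 20.2 h in IgG mice, its partner Pold2 1.46 at 20.8 h, Pole2 1.77 at 20.7 h and Prim2 1.42 at 23.1 h.

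Pcna, the sliding clamp, had a somewhat earlier fitted peak than these genes in IgG mice, but one within their range in anti-Ly6G mice. In IgG mice its means were 128 ± 13.3 (SD, n = 3) at ZT 1, 80.4 ± 7.18 at ZT 5, 83.3 ± 9.94 at ZT 9, 109 ± 2.54 at ZT 13, 138 ± 5.05 at ZT 17 and 129 ± 10.6 at ZT 21. The 3 mice at ZT 17 (132 to 141) lay above the 9 mice of ZT 5, 9 and 13, whose highest value was 110. The ratio was 1.76 at 19.5 h in IgG mice and 1.79 at 20.7 h in anti-Ly6G mice, and the loader subunit Rfc2 had 1.37 at 19.9 h and 1.36 at 20.1 h. Over the Rfc genes called in IgG mice, the ratios ran from 1.30 (Rfc1) to 1.65 (Rfc4, peak 22.5 h). Of the single-strand binding proteins, Rpa2 had 1.60 at 19.9 h, Rpa1 1.36 at 20.8 h and Rpa3 1.27 at 20.8 h. Rfc2 shares 15.1% of its exonic bases with Lat2 on the other strand, and the strand setting of the counting is not given in the sources used here.

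The helicase genes Mcm2 to Mcm7 peaked between 19.1 h (Mcm4) and 20.8 h (Mcm7) in IgG mice, with ratios from 1.72 (Mcm4) to 2.16 (Mcm5). In anti-Ly6G mice they peaked between 19.9 h (Mcm2) and 21.4 h (Mcm7). The licensing factor Cdc6 had a ratio of 2.13 at 19.6 h and its partner Cdt1 1.59 at 19.4 h in IgG mice. Mcm10 followed later, with 1.77 at 22.5 h, and the ligase Lig1, which joins Okazaki fragments, with 1.85 at 21.2 h. Cdc45 had 1.87 at 21.5 h, and the GINS subunit Gins1 1.68 at 21.3 h.

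Of the nucleotide enzymes, Rrm2, the regulated subunit of ribonucleotide reductase, was at 24.4 ± 0.357 (SD, n = 3) at ZT 1 and 9.81 ± 1.56 at ZT 9 in IgG mice, a fitted ratio of 2.44 with a peak at 21.9 h. In anti-Ly6G mice the ratio was 3.19 at 22.1 h. Tk1, the thymidine kinase of the salvage pathway, peaked at 23.5 h with a ratio of 1.76 in IgG mice and at 23.6 h with 1.92 in anti-Ly6G mice, the latest peak among the 38 genes called in IgG mice. Rrm1 had 1.69 at 21.3 h and Tyms 1.40 at 20.6 h in IgG mice. Of the regulators, E2f1 had 1.76 at 20.2 h, and Ccne2, which encodes cyclin E2, 1.77 at 18.3 h. The genes not called in IgG mice were Gins2, Gins4, Orc1, Orc6 and Rfc3. Orc6 and Gins4 had ratios of 1.17 each there, and in anti-Ly6G mice 1.42 and 1.28, both called. Gins2, with a ratio of 1.07 (adjusted p = 0.737), shares 67.3% of its exonic bases with Gse1 on the other strand.

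**Figure D2:**
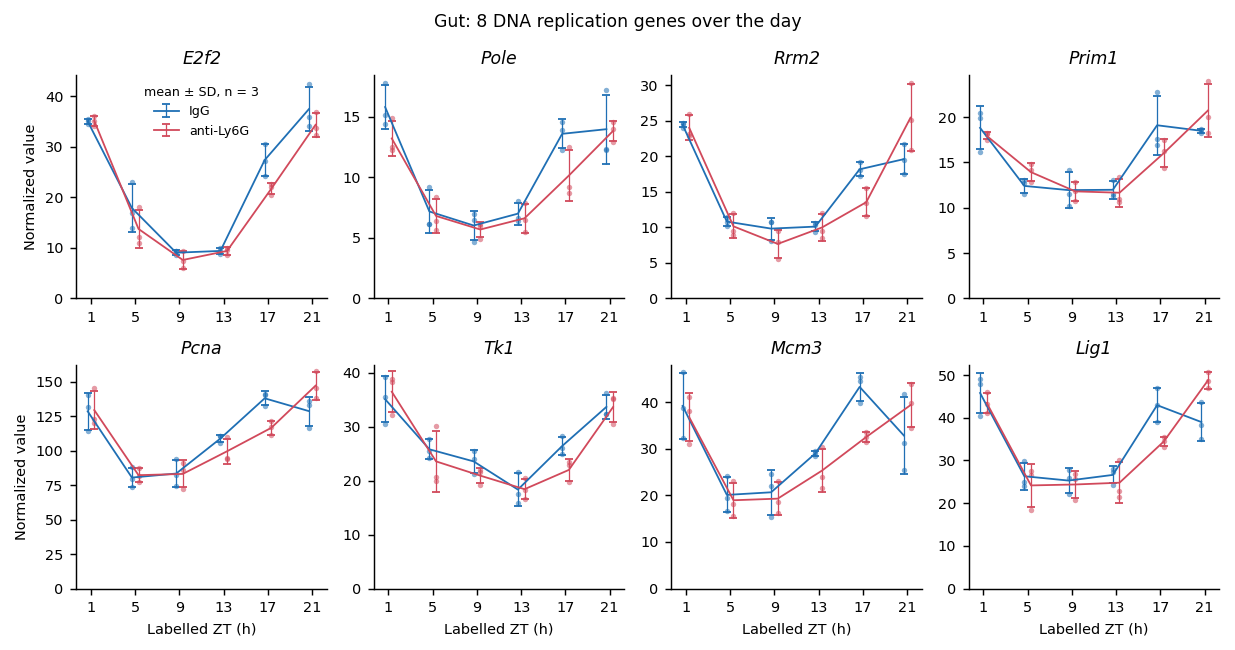
Values of E2f2, Pole, Rrm2, Prim1, Pcna, Tk1, Mcm3 and Lig1 in gut by Zeitgeber time in hours, for IgG and anti-Ly6G mice. Points are single mice (3 per time and antibody), lines join the means and bars are 1 SD. In each panel the lowest means fall between ZT 5 and ZT 13, as for E2f2 at ZT 9 with 9.04 in IgG mice.

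Promoter sequences of genes that moved together in the gut are shown to let a reader see what they share around their starts. They are RefSeq sequences on GRCm38.p6, and 35 of the 43 genes matched, with 41 promoters of 300 bases (250 before the start and 50 after). The motif of E2F factors was searched on both strands as TTTCCCGC, TTTCGCGC, TTTGCCGC and TTTGGCGC, and matches may overlap. It was found in 14 of the 41 promoters (34.1%), against 744 of all 32851 promoters (2.26%). The 14 promoters belong to Mcm3, Mcm5, Mcm6, Mcm7, Cdc6, Cdt1, Gins3, Orc1, Rfc3, Pola1, Pold1, Pole2, Lig1 and E2f2. The E-box CACGTG, the motif bound by the clock proteins, was in 6 of the 41 (14.6%) against 7.15% of all promoters. A match is a description of letters and not a measured binding site. The 200 bases before the start of Mcm6 (chr1:128359706-128359905, minus strand), Mcm5 (chr8:75109309-75109508, plus strand) and Pola1 (chrX:93632156-93632355, minus strand) read as follows 5′ to 3′, with matches in capitals.
Mcm6: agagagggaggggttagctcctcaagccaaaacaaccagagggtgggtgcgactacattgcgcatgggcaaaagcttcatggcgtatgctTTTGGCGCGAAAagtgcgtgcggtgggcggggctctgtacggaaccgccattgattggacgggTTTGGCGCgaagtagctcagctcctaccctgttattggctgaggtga
Mcm5: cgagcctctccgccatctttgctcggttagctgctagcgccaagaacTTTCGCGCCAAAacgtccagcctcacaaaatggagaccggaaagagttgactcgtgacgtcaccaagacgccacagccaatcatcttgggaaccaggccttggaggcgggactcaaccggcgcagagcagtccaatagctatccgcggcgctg
Pola1: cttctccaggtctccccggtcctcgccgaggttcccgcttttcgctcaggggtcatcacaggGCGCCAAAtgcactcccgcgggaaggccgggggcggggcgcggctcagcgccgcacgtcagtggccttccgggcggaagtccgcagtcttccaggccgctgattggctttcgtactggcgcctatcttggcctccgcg

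Mcm6 held 3 matches, of which the first pair overlap in 1 run, Mcm5 held 2 that overlap, and Pola1 held 1. Shorter windows around single matches are given for E2f2, the gene with the widest gut rhythm (chr4:136172305-136172323, plus strand), for Cdc6 (chr11:98908005-98908028, plus), for Mcm7 (chr5:138172033-138172056, minus), and for Orc1, which was not called rhythmic in gut (chr4:108579419-108579442, plus).
E2f2: gcatatagTTTGGCGCtaa
Cdc6: ggtggagaGCGGGAAAtcgcctgg
Mcm7: ttcgaaccGCGGGAAAcagggtgt
Orc1: ggttagtgGCGCGAAAagttttct

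Orc1 and Rfc3 held a match without a called rhythm in IgG mice. Rrm2, Tk1 and Pcna were called rhythmic, and these letters are not in their promoter windows. Of the 14 genes with a match, 12 were called rhythmic in gut in both antibody groups, beside 38 of all 43 genes. Only 35 of the 43 had a promoter to search, so these counts have unlike bases. Whether the calls set the genes with a match apart from the searched genes without one was not tested.

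Other genes of the cell cycle were rhythmic in the same libraries. Of 48 further replication and S phase genes, 40 were called in IgG mice and 39 in anti-Ly6G mice, with mean peaks at 21.1 h and 21.4 h. All 28 listed mitosis genes were called in both, with mean peaks at 1.78 h and 1.31 h and median ratios of 2.49 and 2.69, so their mean peak came after that of the replication genes. Outside the 43, the genes whose values over the 36 gut libraries were most like the mean of the replication genes were Uhrf1 (r = 0.964), Fam111a (0.957), Hells (0.957), Tcf19 (0.949), Wdhd1 (0.947) and Fignl1 (0.944). Uhrf1, Hells and Wdhd1 are among the 48 further genes. These correlations describe libraries that share times of day. Crypt markers were called rhythmic for 5 of 13 in each group, beside 33.6% and 24.6% of all genes.

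**Figure D3:**
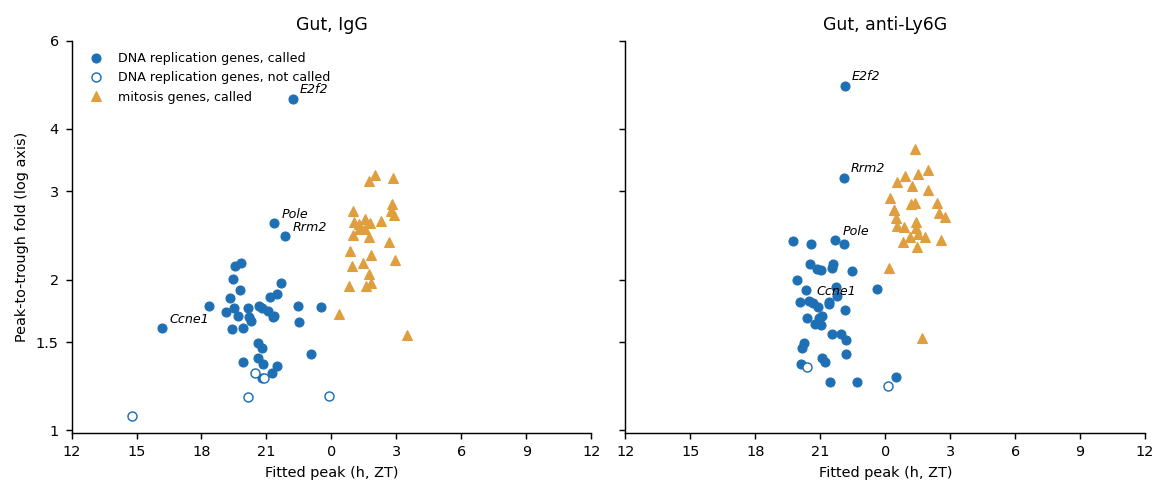
Peak time in hours of the fitted 24 h rhythm in gut against the peak-to-trough ratio on a log axis, for replication genes called (filled circles) or not called (open circles) and called mitosis genes (triangles), by antibody group. Of the called replication genes, 36 of 38 in IgG and 40 of 41 in anti-Ly6G mice peak between ZT 19 and ZT 24, before the mitosis genes, and E2f2 has the widest ratio at 4.60 in IgG and 4.88 in anti-Ly6G mice.

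No gut replication gene was called different between the antibody groups. None of the 43 passed an adjusted p of 0.05 (limma adjusted for time), 4 passed at an unadjusted p of 0.05, and over all genes 0% were called higher and 0.0132% lower. The median difference was -0.060 on the log2 scale, and 37 of 43 genes lay below 0. The smallest p belonged to E2f2, at -0.17 ± 0.061 (SE, adjusted p = 0.219), with 22.7 ± 12.0 (SD, n = 18) in IgG and 20.3 ± 11.6 in anti-Ly6G mice. By time, anti-Ly6G was lower for 40 of 43 genes at ZT 17 (median -0.23) and for 4 of 43 at ZT 21 (median 0.16). These differences by time were not tested singly.

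The rhythms themselves did not differ by a called amount. No gene of the 43 had a differential rhythm (0% of all genes were called), with 4 at an unadjusted p of 0.05. The median peak difference over the 38 genes called in both was 0.363 h, anti-Ly6G minus IgG. Ccne1, which encodes cyclin E1, had the largest at 4.29 h. Its values in IgG mice were 7.43, 7.44 and 7.58 at ZT 17 and 4.09, 5.65 and 6.35 at ZT 21, whereas in anti-Ly6G mice they were 5.00, 6.37 and 6.75 at ZT 17 and 8.78, 9.15 and 9.85 at ZT 21. The mice of the 2 antibodies did not overlap at either time. The test of the difference in rhythm gave an unadjusted p of 0.00106 and an adjusted p of 0.530 (limma).

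In iDTR skin the replication genes were higher than in labelled control skin throughout the set. By limma adjusted for a common 24 h cosine, 42 of 43 genes were higher and 0 lower, where 30.6% of all genes were called higher and 32.4% lower. The median log2 difference over the 43 was 0.60, against -0.017 over all genes. The exception was Rpa3, at 0.09 (adjusted p = 0.326). For 10 of the 43 genes every iDTR library lay above every labelled control library, against 4.62% of all genes. These were Mcm2, Mcm4, Mcm6, Mcm10, Gins1, Orc1, Pcna, Pold2, Tk1 and Ccne1.

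Genes of the helicase and its loading were among those with the largest differences. Mcm5 ran from 21.9 to 45.2 in labelled control skin (median 29.8, n = 16) and from 43.8 to 103 in iDTR skin (median 73.0, n = 16), so the groups overlapped only between 43.8 and 45.2. The log2 difference was 1.25 ± 0.092 (SE, adjusted p = 1.69e-16, limma). Mcm3 ran from 22.9 to 34.9 in control and 34.3 to 89.7 in iDTR, a difference of 1.20 ± 0.088 (adjusted p = 1.26e-16). Mcm10 averaged 6.47 ± 0.955 (SD) in control and 16.8 ± 4.20 in iDTR, at 1.22 ± 0.078 (adjusted p = 1.2e-18).

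Orc1, the largest subunit of the origin recognition complex, ran from 2.99 to 4.80 in control and from 7.31 to 14.6 in iDTR, with no overlap (log2 difference 1.24 ± 0.084, adjusted p = 9.5e-18). Ccne1, the cyclin E1 gene, ran from 2.25 to 4.87 and from 4.95 to 14.6 (1.25 ± 0.108, adjusted p = 3.45e-14), and Rrm2 20.5 ± 3.85 and 51.5 ± 17.6 (1.23 ± 0.097, adjusted p = 1.48e-15). The sliding clamp Pcna averaged 91.4 ± 6.82 and 157 ± 29.4, a smaller difference of 0.75. By role, the Mcm2 to Mcm7 differences ran from 0.65 (Mcm7) to 1.25 (Mcm5), those of the polymerase and primase genes from 0.38 (Pola2) to 0.68 (Pole), and those of the Rfc genes from 0.27 (Rfc1) to 0.46 (Rfc5). Gins1 reached 0.96, Cdt1 0.88, Lig1 0.78, Tk1 1.03, E2f1 0.52 and E2f2 0.60. Other loading and firing genes changed less, with Cdc6 at 0.66, Cdc45 at 0.46, Gins3 at 0.38, Gins4 at 0.27 and Orc6 at 0.27. The smallest called differences were those of Tyms (0.17, adjusted p = 0.0221), Rpa1 (0.18) and Gins2 (0.19).

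Skin content moved with these genes in the same libraries. All 10 listed sebaceous gland genes were lower in iDTR skin (median log2 difference -2.62), with summed values of 7451 to 12225 in labelled control and 801 to 1624 in iDTR. Of 10 basal keratinocyte genes 6 were higher and 2 lower, with Krt5 averaging 5556 in control and 9316 in iDTR, and Krt14 4131 and 8244. Of 10 skeletal muscle genes 9 were lower. All 28 mitosis genes were higher (median 0.95), and of 48 further replication genes 43 were higher and 1 (Orc3) lower, among them Uhrf1 (1.24), Ccna2 (1.19) and E2f8 (1.16). The part of these shifts in the replication genes was not tested.

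The 16 iDTR libraries differed among themselves in step with the title number that the labels give each skin mouse. The numbers start at ZT 4 (number 1) and end at ZT 3 (number 16), and the labels do not say what they stand for. The iDTR library exceeded the labelled control library of the same time for 34 of 43 genes at ZT 4 and for 29 at ZT 5, with medians of 0.24 and 0.14, but for 43 at ZT 24, ZT 1 and ZT 3, with medians of 0.92, 1.03 and 1.03. Each of these counts compares 1 library with 1 library, and no share over all genes is given for them. Mcm5 in iDTR skin was 95.1 at ZT 3 and 50.3 at ZT 4, which are the last and the first numbers. The slope of the iDTR libraries along the title number, against that of the labelled controls, was called rising for 38 of 43 genes, where 7.12% of all genes were called. Each title number has its own time of day, so numbers and times cannot be fully separated. The order of collection is not given in the labels. A slope along the numbers and a 24 h cosine overlap in part over these libraries, so a fit with both does not decide between them. In iDTR skin the mean of the 43 genes (log2, centred) was 0.811 at ZT 3 (number 16) and 0.0767 at ZT 4 (number 1), with 1 library at each. With both terms in the model, 0 of 43 genes were called rhythmic in iDTR skin, against 36 without the slope. Over all 15946 genes tested, 74 were called with both terms and 1731 without the slope. What the rise along the numbers stands for was not tested. Without numbers 13 to 16, 40 of 43 genes were higher in iDTR skin, with a median of 0.48.

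**Figure D4:**
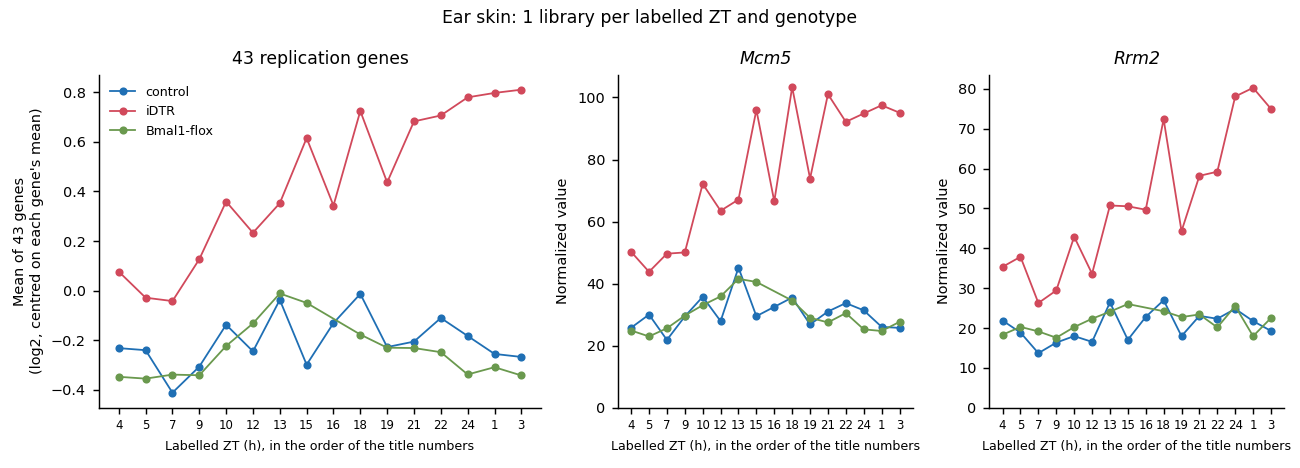
Values in skin by labelled ZT in hours, placed in the order of the title numbers, for the mean of the 43 replication genes (log2, centred), for Mcm5 and for Rrm2, with 1 library per genotype and number. iDTR libraries run upward along the numbers, as Mcm5 from 50.3 at number 1 to 95.1 at number 16, while labelled control and Bmal1-flox libraries do not.

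A 24 h rhythm was called in iDTR skin for 36 of 43 genes, where 10.9% of all genes were called, with peaks between 19.1 h and 22.6 h and a median ratio of 1.56. Rrm1, the large subunit of ribonucleotide reductase, had the smallest p. It ran from 68.2 at ZT 7 to 176 at ZT 1 in iDTR skin, with a ratio of 2.02 at 20.8 h (adjusted p = 8.26e-05, limma). The next were Pola1 (1.74 at 20.0 h), Pole (1.84 at 20.4 h), Prim2 (1.74 at 21.2 h), Lig1 (1.90 at 20.9 h), Ccne1 (2.16 at 21.0 h), Fen1 (1.76 at 20.9 h) and Rfc5 (1.54 at 20.8 h). Fen1 shares 84.2% of its exonic bases with Tmem258 and Gm10143 on the other strand. When a slope along the title number was added to the model, 0 of 43 genes were called, and 74 of all 15946 genes tested. In labelled control skin 0 of 43 were called (0.383% of all genes), with 4 at an unadjusted p of 0.05. The difference in rhythm between iDTR and labelled control was called for 0 of 43 (0.144% of all genes), with Rrm1 lowest at an adjusted p of 0.0559 (limma). At an unadjusted p of 0.05 there were 28, a count for which no share over all genes is given.

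In Bmal1-flox skin, where the clock gene is removed from neutrophils, 2 of 43 genes were lower than in labelled control and 0 higher, where 3.21% of all genes were called lower and 2.41% higher. The median log2 difference of the 43 was -0.018, and 0.011 without title numbers 13 to 16. Pold1, the catalytic subunit of polymerase delta, ran from 21.3 to 35.0 in labelled control (median 26.7) and from 15.7 to 27.5 in Bmal1-flox (median 19.0), and lay below the control of the same time at 15 of 15 times. The difference was -0.39 ± 0.079 (SE, adjusted p = 0.00059, limma). Tyms, thymidylate synthase, averaged 44.2 ± 5.97 (SD) and 36.5 ± 3.87, at -0.27 ± 0.066 (adjusted p = 0.00764), lower at 12 of 15 times. Orc1 lay at -0.24 (adjusted p = 0.0833) and did not pass.

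Rhythms were called in Bmal1-flox skin for Mcm2 (ratio 1.73 at 15.1 h, adjusted p = 0.0045) and Cdc6 (1.74 at 14.2 h, adjusted p = 0.0427), where 0.326% of all genes were called. The call of Cdc6 was lost in 13 of 21 alternatives. The difference from labelled control in rhythm was called for 0 of 43 (0% of all genes), with 1 at an unadjusted p of 0.05. Whole-skin Arntl averaged 39.6 in labelled control and 40.6 in Bmal1-flox, so it does not check a deletion limited to neutrophils.

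In bone marrow, where the replication genes were highest, 12 of 43 were lower in anti-Ly6G mice and 0 higher, where 7.16% of all genes were called lower and 9.95% higher. The differences were small. They ran from -0.21 to 0.04 on the log2 scale, with a median of -0.075 against -0.004 over all genes. Rpa3, the smallest subunit of the single-strand binding complex, averaged 41.9 ± 3.78 (SD, n = 18, lowest 36.3, highest 51.6) in IgG mice and 36.3 ± 4.70 (28.5 to 48.1) in anti-Ly6G mice, and the groups overlapped. Its difference was -0.21 ± 0.044 (SE, adjusted p = 0.00112, limma). The clamp Pcna averaged 628 ± 44.2 and 568 ± 60.8 (-0.15, adjusted p = 0.0109) and the clamp-loader subunit Rfc4 55.5 ± 5.29 and 49.4 ± 6.46 (-0.17, adjusted p = 0.0161).

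Orc6, a subunit of the origin recognition complex, averaged 65.4 ± 6.73 and 59.0 ± 5.85 (-0.15, adjusted p = 0.0177), Ccne1 77.8 ± 6.57 and 70.9 ± 7.68 (-0.14, adjusted p = 0.0271), and Pola1 111 ± 9.16 and 102 ± 9.58 (-0.12, adjusted p = 0.0242). The other genes called lower were Gins1, Rfc3, Mcm7, Prim2, Rrm1 and Pold2, between -0.12 and -0.09. The number lower in anti-Ly6G mice was 23 of 43 at ZT 17 and 39 at ZT 13. Leaving out ZT 1 left 1 gene, Rpa3 (adjusted p = 0.0154), and leaving out anti-Ly6G mouse 10 (ZT 13) left 6.

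Erythroid and B cell content moved the same way in bone marrow. Of 15 erythroid genes 11 were lower (median -0.18), with a summed value of 70950 (57255 to 85243) in IgG and 58047 (33835 to 82818) in anti-Ly6G mice, and of 14 B cell precursor genes 12 were lower (median -0.24, sums 960 and 846). Neutrophil genes went the other way, with 7 of 15 higher and 1 lower. Elane, a granule protease of early neutrophils, averaged 556 in IgG and 782 in anti-Ly6G mice. Of 48 further replication genes 7 were lower and 2 higher, and of 28 mitosis genes 3 were lower. Among the genes most like the replication genes over the 36 libraries were Ubac1 (r = 0.936), Txnrd2 (0.923), Metap2 (0.918), Tspo2 (0.915) and Prdx2 (0.913), none of which is in a list used here. Their part in the result was not tested.

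A rhythm was called in bone marrow for 1 of 43 genes in IgG mice (1.62% of all genes), with 6 at an unadjusted p of 0.05. This was Lig1, with a ratio of 1.23 and a peak at 4.8 h (adjusted p = 0.0314, limma). Its call was lost in 10 of 28 alternatives, 6 of which left out 1 IgG mouse (4, 5, 10, 11, 14 or 15). Time as a factor is not among the 28, and the call was lost there too. In anti-Ly6G mice 0 of 43 were called (0.406% of all genes), with 4 at an unadjusted p of 0.05. No gene differed in rhythm between antibodies (0.007% of all genes), and 0 did at an unadjusted p of 0.05.

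In liver, where values were low, Mcm3 was the 1 gene of 38 tested that was lower in anti-Ly6G mice, with 0 higher, and 0.624% of all genes were called lower and 0.776% higher. It averaged 3.99 ± 0.796 (SD, n = 18, 2.50 to 5.80) in IgG and 2.95 ± 0.684 (1.91 to 4.43) in anti-Ly6G mice, with overlapping groups and a difference of -0.34 ± 0.081 (SE, adjusted p = 0.0253, limma). Mcm10 lay at -0.32 (adjusted p = 0.116) and Rfc3 at -0.21 (adjusted p = 0.124). The call of Mcm3 was lost when ZT 5, 9, 17 or 21 was left out.

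Liver rhythms were called for 14 of 38 genes in IgG mice (42.9% of all genes) and 8 of 38 in anti-Ly6G mice (34.7%), with scattered peaks. Rrm2 was at 2.74 at ZT 1 and 12.4 at ZT 13 in IgG mice, with a ratio of 2.71 at 12.8 h. Tk1 had 1.88 at 14.2 h, Cdt1 2.30 at 5.92 h, Pola2 1.75 at 3.96 h, Rfc3 1.72 at 3.17 h, Pola1 1.84 at 4.75 h and Mcm7 1.54 at 23.3 h. Ccne1 had 2.84 at 8.96 h, with values of 3.53 ± 0.448 (SD, n = 3) at ZT 9 and 0.392 ± 0.150 at ZT 1. In anti-Ly6G mice, Tk1, Mcm10, Ccne1, Rrm2, Pcna, Rpa2, Pola2 and Rfc3 were called. Of 28 alternatives, which leave out time as a factor, the call was lost in 12 for Rfc3, 8 for Pola2, 4 for Pcna and 3 for Rpa2. It was lost in 0 for Tk1, Mcm10 and Rrm2, and in 0 of 27 for Ccne1. The difference in rhythm was called for 0 of 38 (0.008% of all genes), with 2 at an unadjusted p of 0.05.

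In lung by its labels, 0 of 42 genes differed between antibodies (0% of all genes in either direction), with 12 at an unadjusted p of 0.05 and 38 of 42 above 0. The share of all genes at that unadjusted p is not given. The smallest p were those of Rrm2 (0.26), Mcm5 (0.24) and Gins3 (0.17), each with an adjusted p of 0.355 (limma). A rhythm was called for 5 genes in IgG mice (Rpa1, Pola2, Orc6, Rrm1 and Rrm2, 11.2% of all genes) and 3 in anti-Ly6G mice (Mcm5, Pola1 and Rfc4, 12.7%). Lost calls were counted over 28 alternatives, which leave out time as a factor. The call was lost in 2 for Rpa1, 7 for Pola2, 13 for Orc6, 14 for Rrm1 and 18 for Rrm2. It was lost in 7 for Mcm5, 9 for Pola1 and 21 for Rfc4. The difference in rhythm was called for 0 of 42 (0.0511% of all genes), with 9 at an unadjusted p of 0.05.

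**Figure D5:**
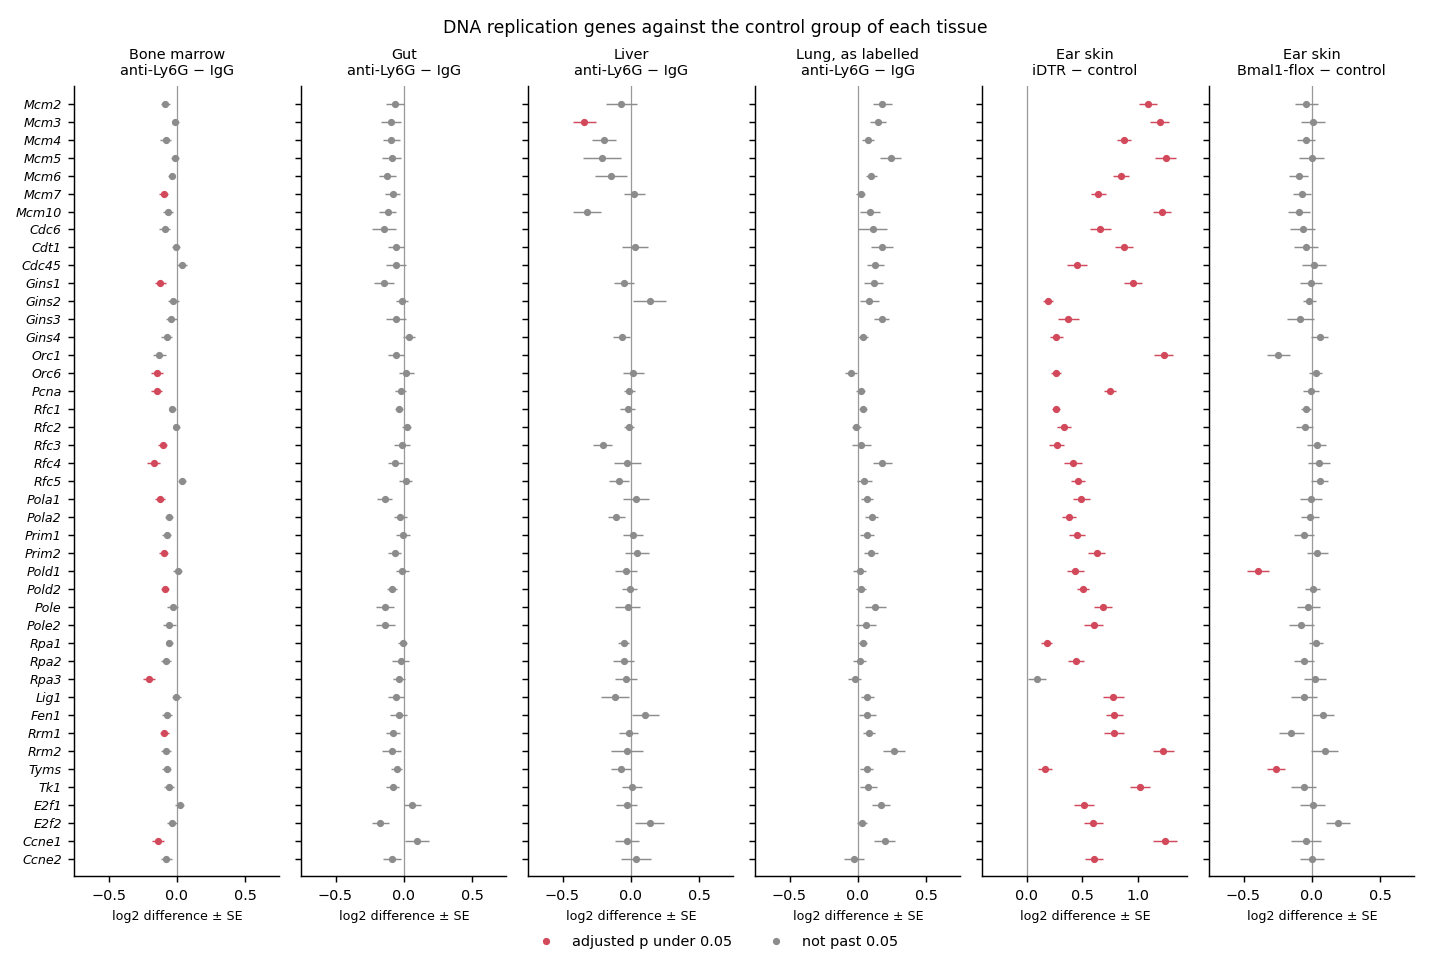
Log2 difference from the control group for each tested replication gene in bone marrow, gut, liver, lung (anti-Ly6G minus IgG) and skin (iDTR and Bmal1-flox minus labelled control), with bars of 1 SE and genes past an adjusted p of 0.05 in red. The iDTR panel has its own scale, with 42 of 43 genes called higher, while the others hold 12 (bone marrow), 1 (liver) and 2 (Bmal1-flox) called lower and 0 in gut and lung.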

How the data were processed

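RNA was sequenced from 5 mouse tissues in 191 libraries, and whether the counting used strand is not given in the sources used here. The deposited values have the unit signal: per the file headers and values, they are normalised read values per gene, 1 column per library, on a scale close to RPM (reads scaled to library size). Per the labels' protocols and the submitters' processing notes, the authors trimmed reads with cutadapt 1.7.1 and estimated gene counts with RSEM, and limma 3.46 and CASAVA 1.8 are also named. The value of 1 read, recovered from the lowest values, lay between 0.0319 and 0.131, which gives 7.68 to 30.9 M reads per library. Depth limits the genes at low values, mainly in liver. Between 29.7% and 44.5% of values were whole multiples of it (tolerance 0.005), too few for tests on counts.

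Differences were tested with limma 3.58.1 in R 4.3.3 on log2(value + 1), over all genes with a mean of at least 1, two-sided, with Benjamini-Hochberg adjustment over each tissue's tested genes and calls at 0.05. Fold changes are on that scale and understate those of low genes. Shares of all genes called are at the adjusted p, and no such share is given for counts at an unadjusted p. Antibody effects were adjusted for time as a factor, skin genotype effects for a common cosine and sine of period 24 h, and rhythms were the F test of a cosine and sine per group. The code was tested on simulated data. Any of the 43 genes could be named, and full values follow a fixed rule: up to 6 per direction with the largest called difference, up to 8 rhythms with the smallest p, otherwise the 3 with the smallest p. The replication genes and all marker lists were chosen with earlier results of these data known, and give no independent support. Gene coordinates are from GENCODE on GRCm38. Mice are numbered in accession order within a group, as names only. How the authors normalised the values is not given in the sources used here. No 2 libraries held the same values. Alternatives were other pseudocounts, no filter, trimmed-mean rescaling, time as a factor, leaving out each time or mouse, and the replicate block. Counts of lost calls for single genes leave out time as a factor, which gives no fitted ratio. Leaving out the gut libraries with other organs' transcripts and the terms and subsets along the skin title number were chosen after seeing the data. Some genes that the naming rule selects are not reported here.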

Additional observations from a re-analysis of the deposited data

Results flagged for a closer look

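The slope of the replication genes along the title number of the skin mice differed between iDTR and labelled control libraries, by a limma test of the difference, for 38 genes, all rising in iDTR relative to control (median 0.056 log2 per number). The same test against labelled control called 0 genes in Bmal1-flox skin.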

How the results depend on the processing

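Counts of called replication genes kept their size, within 1.5 times, under most alternatives. The median over the 43 genes in Bmal1-flox skin turned from -0.018 to 0.011 without title numbers 13 to 16. In bone marrow the 12 genes lower in anti-Ly6G mice became 1 when ZT 1 was left out, 6 for ZT 9, 5 for ZT 13 and 5 for ZT 21, and lay between 6 and 15 with single mice left out. The 1 rhythm in IgG marrow became 0 with time as a factor and without ZT 5, 9, 17 or 21, and 2 without ZT 13 (0 to 2 with single mice left out), and the 0 in anti-Ly6G marrow became 1 with time as a factor. The liver difference of 1 gene became 0 without ZT 5, 9, 17 or 21, and was 1 to 2 with single mice left out. The 8 liver rhythms in anti-Ly6G mice became 5 without ZT 5, 13 or 21. In lung the 5 rhythms in IgG mice became 3 after trimmed-mean rescaling, 2 with time as a factor, and, with a time left out, 0 for ZT 1, 1 for ZT 9, 3 for ZT 13, 3 for ZT 17 and 1 for ZT 21 (2 to 6 with single mice left out). The 3 in anti-Ly6G mice became 0 without ZT 9 and 5 without ZT 13 (0 to 5). In skin the iDTR differential rhythm of 0 genes became 2 with a pseudocount of 5 and 2 without title numbers 13 to 16 (0 to 6 with single mice left out, the highest without iDTR mouse 12). The 36 iDTR rhythms became 0 with a slope along the title number, where calls over all genes also fell from 1731 to 74. The 2 Bmal1-flox rhythms became 1 with a pseudocount of 5, 1 without the filter, 1 without title numbers 13 to 16 and 5 with the slope (1 to 2 with single mice left out). The causes were not tested, except that a left-out time means fewer libraries.

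The replicate numbers in the titles showed no clear pairing of the samples. Over 18 gut pairs the correlation of deviations ran from -0.221 to 0.184. In skin it ran from -0.119 to 0.296 over 16 pairs of control and iDTR, and from -0.176 to 0.245 over 15 pairs of control and Bmal1-flox. Correlations of this size cannot exclude a pairing, and in skin a number also stands for a time that the genotypes share. With the replicate block, 0 gut genes differed between antibodies, and in skin 42 genes were higher in iDTR and 2 lower in Bmal1-flox, the same counts as without it. Leaving out single mice gave 38 to 40 gut rhythms in IgG mice, 40 to 42 in anti-Ly6G mice, and 28 to 37 in iDTR skin.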
